A study of Homo sapiens with 12 samples.

Results

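SR splicing factors were followed across 4 lines of MIA PaCa-2, a human cell line from a pancreatic carcinoma. The members were the 10 genes SRSF1, SRSF2, SRSF3, SRSF4, SRSF5, SRSF6, SRSF7, SRSF9, SRSF10 and SRSF11, chosen by gene symbol from the 63086 genes in the table. All 10 passed the minimum mean of 10 normalized counts, as did 15987 genes in all. Messenger RNA levels were measured by RNA sequencing in 12 libraries, 3 per line. WT cells were unmodified. The CRISPR Control line carried only a silent point mutation. TIMP1 KO 1 and TIMP1 KO 2 were edited in exon 4 of TIMP1, which encodes a secreted inhibitor of metalloproteinases. No line received a treatment, and all were grown in RPMI 1640 with serum and antibiotics. Each edited line is a single line, so loss of TIMP1 and the history of that line cannot be told apart within it. WT and CRISPR Control are called the competent lines below, and TIMP1 KO 1 and TIMP1 KO 2 the deficient lines.

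SR proteins bind pre-mRNA through RNA recognition motifs and recruit the spliceosome through a tail rich in arginine and serine. They help to define exons and to choose splice sites, and some of them accompany the mRNA to the cytoplasm. Many SR genes also limit their own level by splicing in a poison exon, which sends the transcript to nonsense-mediated decay. SR factors are expressed in essentially all cells and are often raised in proliferating and cancer cells.

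Depth ran from 26908701 to 36093563 reads in genes per library. Each member had between 1874 and 14600 reads in every library. TIMP1 mRNA itself was 3553 ± 274 (SD, n = 3) normalized counts in WT and 2690 ± 357 in CRISPR Control, against 1600 ± 32.8 in TIMP1 KO 1 and 1161 ± 28.8 in TIMP1 KO 2. The epithelial keratins KRT8 and KRT18 and the mesenchymal gene VIM were present in all 12 libraries. CRISPR Control had the lowest keratins, with KRT8 and KRT18 at -1.71 and -1.69 on the log2 scale against WT (limma adjusted p = 1.25e-11 and 8.62e-12). TIMP1 KO 2 was also lower than WT in them, at -0.43 and -0.62 (limma adjusted p = 0.000492 and 6.22e-06), while TIMP1 KO 1 did not pass the test there. CDKN2A, which is deleted in MIA PaCa-2, was at 0 in every library. PTPRC, CD3E, PECAM1, CDH5 and ALB, which mark leukocytes, T cells, endothelium and hepatocytes, reached no more than 17.2 normalized counts in any library. A normalized count is a read count divided by the size factor of its library. Such a value is relative to the other genes of the library, so that fewer cells with a transcript and less of it per cell cannot be told apart.

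Most SR members were lower in TIMP1 KO 2 than in WT, whereas in TIMP1 KO 1 only SRSF2 and SRSF4 passed the test against WT. The summed level of the 10 genes was 55713 ± 2070 normalized counts (SD, n = 3) in WT and 57821 ± 4624 in CRISPR Control. It was 49931 ± 1692 in TIMP1 KO 1 and 43140.2 ± 1654 in TIMP1 KO 2. These sums made up 0.177% of the reads in WT, 0.181% in CRISPR Control, 0.158% in TIMP1 KO 1 and 0.146% in TIMP1 KO 2. The sums are given as a description, with no test. SRSF4 and SRSF2 had the largest falls between deficient and competent lines, whereas SRSF5 and SRSF11 did not follow them.

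**Figure D1:**
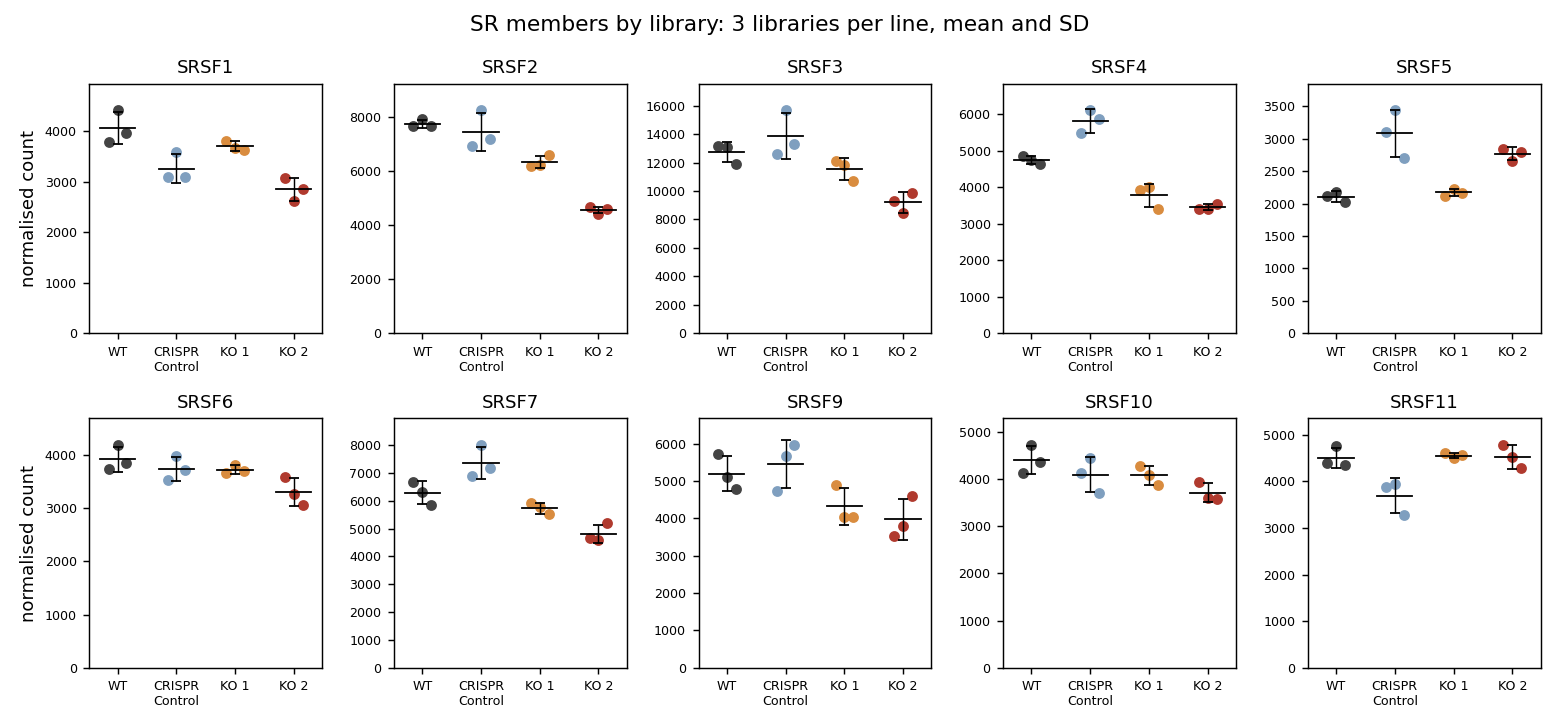
Normalized counts (vertical axes, from 0) of each SR member in the 4 lines. Each point is a library, the horizontal bar is the mean and the whisker the SD of 3 libraries. SRSF2 and SRSF4 were lower in all 6 deficient libraries than in all 6 competent ones. SRSF5 was high in CRISPR Control and TIMP1 KO 2, and SRSF11 was low in CRISPR Control.

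SRSF2, the factor also known as SC35 and used as a marker of nuclear speckles, lies at chr17:76734115-76737333 (GRCh38, minus strand). It was at 7650.3, 7919 and 7680.1 normalized counts in the WT libraries and at 6936, 8248 and 7173 in CRISPR Control. It was at 6197, 6209 and 6581 in TIMP1 KO 1 and at 4659, 4423 and 4599 in TIMP1 KO 2. All 6 deficient libraries lay below all 6 competent ones, and those of TIMP1 KO 2 lay below those of TIMP1 KO 1 without overlap. TIMP1 KO 2 held 58.8% of the WT level and TIMP1 KO 1 81.7%. The log2 change against WT was -0.77 (SE 0.07, limma adjusted p = 3.25e-08) in TIMP1 KO 2 and -0.29 (SE 0.07, adjusted p = 0.00306) in TIMP1 KO 1. MFSD11, on the opposite strand, shares 823 bases with SRSF2. Its level was 930.3 ± 46.2 normalized counts in WT and 1181 ± 80.8 in TIMP1 KO 2, so that it was higher where SRSF2 was lowest.

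SRSF4, at chr1:29147743-29181900 (minus strand), carries a pair of RNA recognition motifs and a long arginine and serine tail. Its WT libraries were at 4850.03, 4747 and 4637 normalized counts and its CRISPR Control libraries at 5479, 6107 and 5858. TIMP1 KO 1 gave 3913, 3994 and 3409, and TIMP1 KO 2 gave 3401, 3398 and 3550.46. CRISPR Control was therefore above WT in every library, and the deficient lines, which overlapped each other, were below both. Against WT the log2 change was -0.33 (SE 0.07, limma adjusted p = 0.00126) in TIMP1 KO 1 and -0.46 (SE 0.07, adjusted p = 2.55e-05) in TIMP1 KO 2. CRISPR Control differed from WT in the other direction, by 0.29 (SE 0.07, adjusted p = 0.00216).

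SRSF3 and SRSF7 shuttle to the cytoplasm and link mRNA to the export receptor NXF1. SRSF3, the smallest SR protein, lies at chr6:36594353-36605600 (plus strand). Its values were 13170.3, 13113 and 11930.1 normalized counts in WT, 12611 to 15674 in CRISPR Control, 10712 to 12142 in TIMP1 KO 1 and 9321, 8421 and 9840.2 in TIMP1 KO 2. The TIMP1 KO 2 libraries were below all others, and the highest TIMP1 KO 1 library was above the lowest WT library. SRSF3 fell by 0.47 on the log2 scale (SE 0.09, limma adjusted p = 0.000131) in TIMP1 KO 2 against WT. In TIMP1 KO 1 the difference from WT was -0.14 (SE 0.09), short of the threshold.

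SRSF7, at chr2:38743599-38751494 (minus strand), has a zinc knuckle beside its RNA recognition motif. It was at 6678, 6321 and 5851 normalized counts in WT and at 6905, 8000.11 and 7187 in CRISPR Control. TIMP1 KO 1 had 5907, 5777 and 5513, and TIMP1 KO 2 had 4669, 4577 and 5194. The order of the line means was CRISPR Control, WT, TIMP1 KO 1 and TIMP1 KO 2, with an overlap only between WT and TIMP1 KO 1. The log2 change against WT was -0.38 (SE 0.08, limma adjusted p = 0.000295) in TIMP1 KO 2 and 0.23 (SE 0.08, adjusted p = 0.0167) in CRISPR Control. The latter call was lost without WT replicate 3 or CRISPR Control replicate 2 (limma adjusted p from 0.0755 to 0.0993).

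The sequences before the start sites of SRSF3 and SRSF4 are shown because each of them followed SRSF7 closely across the libraries. They are the 250 bases before the RefSeq start (GRCh38.p14), 5′ to 3′ on the strand of the gene, with motif matches in capitals.
SRSF3 (chr6:36594112-36594361, plus strand): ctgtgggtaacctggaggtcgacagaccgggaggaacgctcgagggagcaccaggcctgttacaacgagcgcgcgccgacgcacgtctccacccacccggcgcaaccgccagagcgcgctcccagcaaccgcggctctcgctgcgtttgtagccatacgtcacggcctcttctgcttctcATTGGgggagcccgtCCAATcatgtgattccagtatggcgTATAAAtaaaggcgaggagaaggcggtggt
SRSF4 (chr1:29181901-29182150, minus strand): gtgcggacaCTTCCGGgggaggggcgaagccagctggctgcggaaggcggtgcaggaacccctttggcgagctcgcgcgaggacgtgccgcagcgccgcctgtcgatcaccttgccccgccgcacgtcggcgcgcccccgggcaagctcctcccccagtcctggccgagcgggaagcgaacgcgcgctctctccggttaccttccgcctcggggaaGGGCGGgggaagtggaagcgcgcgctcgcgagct
In SRSF3 the capitals mark CCAAT on either strand, starting at -70 and -55 from the start site, and TATAAA at -30. In SRSF4 they mark CCGGAAG, the ETS core, at -241 and GGGCGG, the GC box, at -34.

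Of the 10 members, 9 had a promoter in the RefSeq table, all but SRSF2, and 7 motifs were searched on both strands, with no overlapping matches in the members. These 9 had 11 promoters, as SRSF7 and SRSF11 had more than 1 each. A member was counted if any of its promoters matched, whereas the shares of all promoters are per promoter, so the figures are not strictly alike. CCAAT was in 1 of the 9 (SRSF3), against 32.0% of 35116 promoters of the same length. TATAAA was in 3 (SRSF3, SRSF7 and SRSF11), against 10.7%, and in SRSF7 and SRSF11 it lay in only 1 of their promoters. GGGCGG was in 3 (SRSF4, SRSF6 and SRSF7), against 42.6%, and CCGGAAG in 2 (SRSF4 and SRSF5), against 8.52%. The NRF1 motif was in 3 (SRSF1, SRSF9 and SRSF10), against 5.07%. The E box CACGTG and the CRE motif TGACGTCA were in none, against 6.34% and 1.65% of all promoters. No motif was shared by SRSF3 and SRSF4. These matches describe the letters in the window only.

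SRSF9, at chr12:120461672-120495946 (minus strand), is a close relative of SRSF1 with a short tail. It was at 5715, 5118 and 4777 normalized counts in WT and at 4745, 5672 and 5965 in CRISPR Control. It was at 4899, 4033 and 4029.95 in TIMP1 KO 1 and at 3536, 3785 and 4595 in TIMP1 KO 2. The spread within lines was wide for a member, and 1 TIMP1 KO 1 library overlapped the competent ones. The log2 change against WT was -0.39 (SE 0.11, limma adjusted p = 0.00445) in TIMP1 KO 2 and -0.27 (SE 0.11) in TIMP1 KO 1, where it missed the threshold but passed it in 11 of the other settings tried. GATC, on the opposite strand, and NRAV, on the same strand, share 1725 and 124 bases with SRSF9. How reads in those bases were counted is not given in the sources used here. NRAV was at 950.0 ± 48.8 normalized counts (SD, n = 3) in WT and 740.3 ± 35.6 in TIMP1 KO 2, lower as SRSF9 was, and GATC at 1009 ± 25.0 and 910.3 ± 59.4.

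SRSF1, SRSF6 and SRSF10 were lower than WT in TIMP1 KO 2, and in TIMP1 KO 1 they missed the threshold. SRSF1, the factor known as SF2/ASF, lies at chr17:58000919-58007346 (minus strand). It was at 3791, 4412 and 3971 normalized counts in WT, 3097, 3582 and 3086 in CRISPR Control, 3814, 3671 and 3619 in TIMP1 KO 1 and 3062, 2615 and 2861 in TIMP1 KO 2. WT and TIMP1 KO 1 were thus the high lines, and CRISPR Control and TIMP1 KO 2 the low ones. Its log2 change against WT was -0.51 (SE 0.08, limma adjusted p = 3.02e-05) in TIMP1 KO 2 and -0.32 (SE 0.08, adjusted p = 0.00284) in CRISPR Control.

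SRSF6, a relative of SRSF4, lies at chr20:43457893-43466046 (plus strand). Its line means were 3924 ± 236, 3741 ± 225, 3726 ± 82.2 and 3303 ± 267 normalized counts (SD, n = 3) in WT, CRISPR Control, TIMP1 KO 1 and TIMP1 KO 2. SRSF10, which acts as a splicing repressor when its tail is dephosphorylated, lies at chr1:23964347-23980927 (minus strand). Its line means in the same order were 4401 ± 295, 4094 ± 376, 4076 ± 202 and 3712 ± 203. Against WT, TIMP1 KO 2 was lower by -0.25 on the log2 scale in SRSF6 (SE 0.07, limma adjusted p = 0.00855) and by -0.24 in SRSF10 (SE 0.08, adjusted p = 0.0134). The libraries of TIMP1 KO 2 overlapped those of CRISPR Control in both genes. These calls were lost with equal library totals, with quantile normalization and when WT replicate 2 was left out. They were also lost without TIMP1 KO 2 replicate 3 for SRSF6 and without TIMP1 KO 2 replicate 2 for SRSF10. The adjusted p went up to 0.107 and 0.14 over the settings that lost them.

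SRSF5, at chr14:69726900-69772005 (plus strand), did not follow the other members. It was at 2121, 2180.11 and 2019 normalized counts in WT, 3113, 3439.63 and 2711 in CRISPR Control, 2119.7, 2229 and 2169 in TIMP1 KO 1 and 2846, 2656 and 2803 in TIMP1 KO 2. CRISPR Control and TIMP1 KO 2 overlapped each other and were above every library of WT and TIMP1 KO 1. The log2 change against WT was 0.55 (SE 0.08, limma adjusted p = 1.42e-05) in CRISPR Control and 0.39 (SE 0.08, adjusted p = 0.000385) in TIMP1 KO 2. The corresponding value in TIMP1 KO 1 was 0.04 (SE 0.08).

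SRSF11, at chr1:70205682-70253052 (plus strand), was low in CRISPR Control alone. That line had 3875, 3933 and 3270.34 normalized counts, and all 9 other libraries were above it, with means of 4504 ± 218 in WT, 4548 ± 55.4 in TIMP1 KO 1 and 4521 ± 250.5 in TIMP1 KO 2 (SD, n = 3). The log2 change of CRISPR Control against WT was -0.29 (SE 0.08, limma adjusted p = 0.0036). Neither deficient line differed from WT, at 0.01 (95% confidence interval -0.15 to 0.17) in TIMP1 KO 1 and 0.00 (-0.16 to 0.17) in TIMP1 KO 2.

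Read by comparison, TIMP1 KO 1 was lower than WT in 2 of the 10 members (SRSF2 and SRSF4) and higher in none. Of all genes tested, 17.5% were lower and 18.0% higher in that comparison, so a count of 2 is near the background. TIMP1 KO 2 was lower than WT in 8 of 10 and higher in 1 (SRSF5), against 27.9% lower and 27.1% higher of all genes. CRISPR Control was higher than WT in 3 (SRSF4, SRSF5 and SRSF7) and lower in 2 (SRSF1 and SRSF11), against 27.2% and 26.3% of all genes. Both counts are near the background, and calls of members were thus also found between the competent lines. The median log2 change of the members was -0.13 in TIMP1 KO 1, -0.39 in TIMP1 KO 2 and 0.00 in CRISPR Control against WT, where the medians of all genes were 0.00, -0.01 and 0.01.

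**Figure D2:**
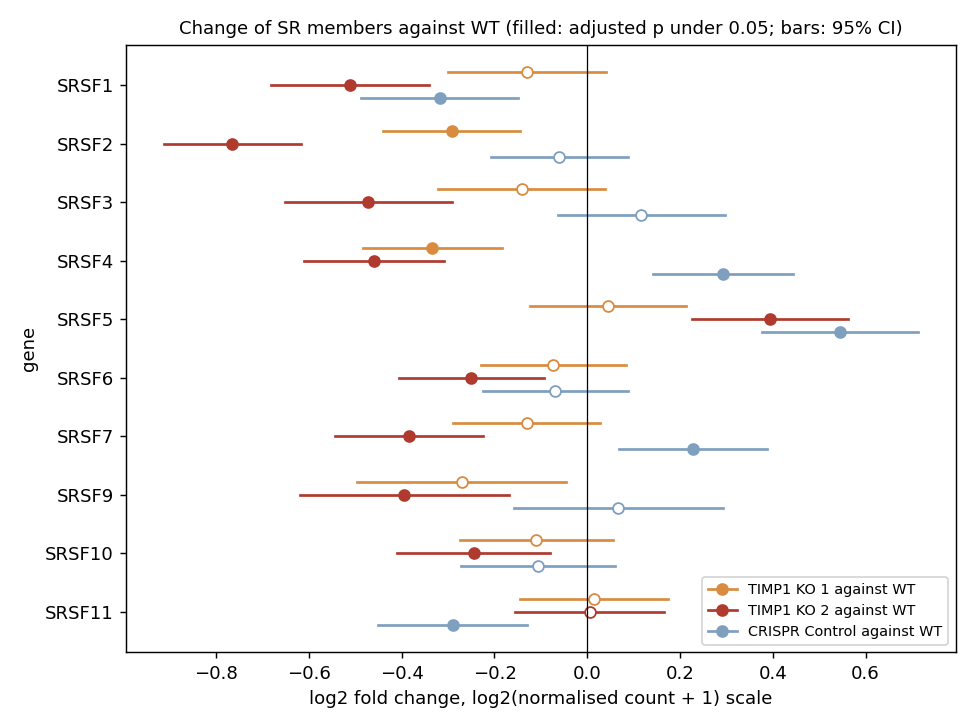
Log2 fold change of each SR member against WT (horizontal axis, on the log2(normalized count + 1) scale) in TIMP1 KO 1, TIMP1 KO 2 and CRISPR Control. Bars are 95% confidence intervals and filled points passed the adjusted threshold. Filled points lie below 0 for 8 members and above it for SRSF5 in TIMP1 KO 2, and below 0 for SRSF2 and SRSF4 in TIMP1 KO 1, where the interval of SRSF9 also lies below 0.

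Against CRISPR Control, TIMP1 KO 1 was lower in 6 members (SRSF2, SRSF3, SRSF4, SRSF5, SRSF7 and SRSF9) and higher in SRSF11, with 31.3% of all genes lower and 31.7% higher. TIMP1 KO 2 was lower in 7 (SRSF1, SRSF2, SRSF3, SRSF4, SRSF6, SRSF7 and SRSF9) and higher in SRSF11, with 34.4% of all genes lower and 33.3% higher. The steepest of these differences was in SRSF4, at -0.75 on the log2 scale in TIMP1 KO 2 (SE 0.07, limma adjusted p = 2.7e-08) and -0.63 in TIMP1 KO 1 (SE 0.07, adjusted p = 3.91e-07). SRSF7 was at -0.61 and -0.36. The median change of the members was -0.33 in TIMP1 KO 2 and -0.25 in TIMP1 KO 1. In TIMP1 KO 1 the call of SRSF3 was lost without CRISPR Control replicate 2 or TIMP1 KO 1 replicate 3, and that of SRSF9 without CRISPR Control replicate 3 or TIMP1 KO 1 replicate 2 or 3. SRSF1, at 0.19 with an adjusted p of 0.0501 in TIMP1 KO 1, was called higher in 10 other settings. In TIMP1 KO 2 the calls of SRSF1 and SRSF6 were each lost in 16 other settings. These comparisons share the deficient libraries with those against WT.

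Between the mean of the deficient lines and the mean of the competent lines, 7 members were lower and 1 was higher, against 33.0% lower and 32.9% higher among all genes. The lower ones were SRSF4 (-0.54, SE 0.05, limma adjusted p = 2.1e-08), SRSF2 (-0.50, SE 0.05, adjusted p = 5.08e-08), SRSF7 (-0.37, SE 0.05), SRSF9 (-0.37, SE 0.08), SRSF3 (-0.37, SE 0.06), SRSF1 (-0.16, SE 0.06) and SRSF6 (-0.13, SE 0.05). SRSF11 was higher, by 0.16 (SE 0.05, adjusted p = 0.0168), with CRISPR Control as its only low line. SRSF5 and SRSF10 did not pass, at -0.05 and -0.12. SRSF6 had an adjusted p of 0.0417 and lost its call in 16 of the other settings tried. SRSF1 lost its call in 4: with equal library totals, with quantile normalization, without WT replicate 2 and without TIMP1 KO 2 replicate 2. Only SRSF4 was lower by at least 0.5 on the log2 scale, as were 14.4% of all genes.

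Few members met the stricter requirements. The libraries of the deficient lines were all below those of the competent lines in SRSF2 and SRSF4, as in 12.4% of all genes. The same 2 genes were lower in each deficient line against each competent line, as were 9.50% of all genes. SRSF2 was the only member that was lower than WT in both deficient lines with no call between CRISPR Control and WT, as in 5.18% of all genes.

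The members are abundant, and abundant genes were more often lower in these data. Among the 3877 other genes with a mean of at least 2000 normalized counts, 44.2% were lower in TIMP1 KO 2 against WT and 46.3% in deficient against competent lines. Their median log2 changes were -0.14 and -0.10. Against CRISPR Control, 48.7% were lower in TIMP1 KO 2 and 38.3% in TIMP1 KO 1, with medians of -0.18 and -0.06. In TIMP1 KO 2 against TIMP1 KO 1, 35.9% were lower, with a median of -0.12, and in TIMP1 KO 1 against WT 23%. This set was chosen after the values were seen.

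The deficient lines also differed from each other. TIMP1 KO 2 was below TIMP1 KO 1 in 4 members, SRSF1, SRSF2, SRSF3 and SRSF7, and above it in SRSF5, with 20.1% of all genes lower and 18.1% higher. The log2 differences were -0.38 in SRSF1 (SE 0.08, limma adjusted p = 0.00102), -0.47 in SRSF2 (SE 0.07, adjusted p = 2.99e-05), -0.33 in SRSF3 (SE 0.09, adjusted p = 0.00499), -0.25 in SRSF7 (SE 0.08, adjusted p = 0.0125) and 0.35 in SRSF5 (SE 0.08, adjusted p = 0.00188). The count of 4 lower is close to the 35.9% among the abundant genes. The call of SRSF7 was lost with equal library totals, with quantile normalization, and without TIMP1 KO 1 replicate 1 or TIMP1 KO 2 replicate 2, with values down to -0.15 and adjusted p up to 0.112.

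Across the 12 libraries, 35 of the 45 pairs of members were positively correlated and 10 negatively, as Pearson's r of log2 values. SRSF7 and SRSF3 had the highest r, at 0.965, followed by SRSF7 and SRSF4 at 0.941 and SRSF3 and SRSF2 at 0.917. SRSF1, SRSF6 and SRSF10 had r between 0.84 and 0.86 with each other. SRSF11 and SRSF4 had the lowest r, at -0.72. The points share their lines and size factors, so these values are given as a description.

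**Figure D3:**
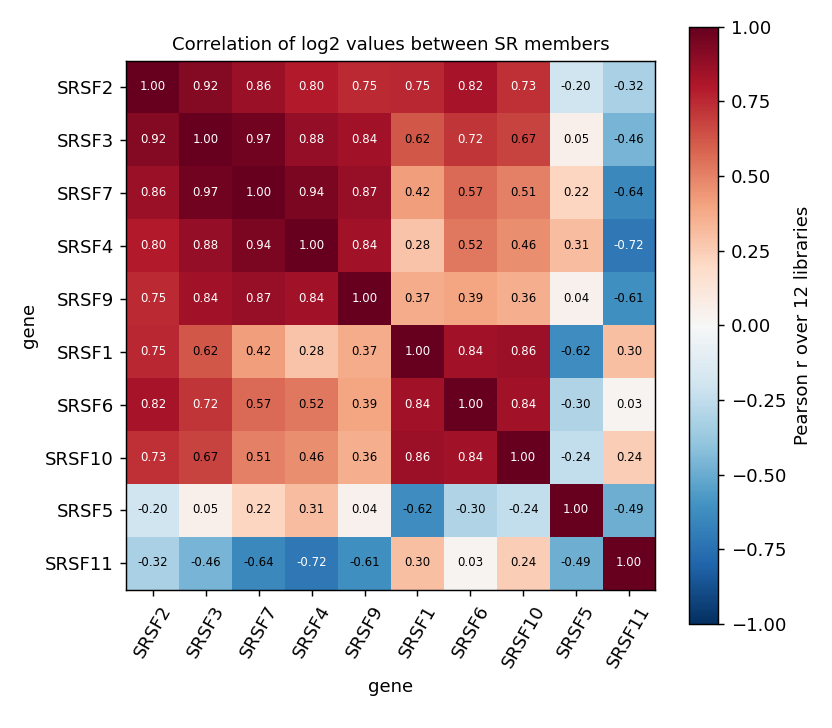
Pearson's r between the log2 normalized counts of each pair of SR members over the 12 libraries, on a colour scale from -1 to 1. SRSF2, SRSF3, SRSF7, SRSF4 and SRSF9 form a block of high values, SRSF1, SRSF6 and SRSF10 another, and SRSF5 and SRSF11 stand outside both.

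Among 11632 genes with a mean of at least 100 normalized counts, those most like the mean profile of the members over the 12 libraries were GPN3 (r = 0.980), METTL2B (0.977), SNRPD1 (0.975), SF3A3 (0.970) and SEH1L (0.965). An r of at least 0.9 was reached by 160 genes. Of the members, SRSF3 lay closest to that profile, at 0.957, and SRSF11 farthest from it, at -0.26. Each member is itself part of the profile, so these values cannot be set beside those of the other genes.

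The order of the members by level was read per kilobase of the longest transcript. SRSF9, SRSF3, SRSF2 and SRSF7 were the 4 highest in WT, in that order, and SRSF10 was the lowest. The libraries of SRSF9 and SRSF3, of SRSF1 and SRSF5 and of SRSF4 and SRSF10 overlapped on this scale. The order depends on the length chosen, and with the canonical transcript SRSF4 moved from rank 9 to rank 5. Of the sum of the 10 per-kilobase levels, SRSF2 made up 17.2% in WT and 13.2% in TIMP1 KO 2, SRSF5 4.44% and 7.58%, and SRSF11 7.21% and 9.41%.

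The other SR family members moved apart. SRSF8, a relative of SRSF2, was at 1797 ± 196 and 1682 ± 132 normalized counts (SD, n = 3) in WT and CRISPR Control and at 2146 ± 19.4 and 2051 ± 27.6 in TIMP1 KO 1 and TIMP1 KO 2. It was higher by 0.28 on the log2 scale in the deficient lines (SE 0.06, limma adjusted p = 0.000404), with no overlap of libraries. The share of all genes with such a separation upward is not given here. Against WT, SRSF8 passed the test in TIMP1 KO 1 (0.26, limma adjusted p = 0.0186) but not in TIMP1 KO 2 (0.20, adjusted p = 0.0515). SRSF12, a relative of SRSF10, was at 32.4 ± 4.26 and 51.8 ± 2.95 in the competent lines and at 3.73 ± 4.00 and 3.92 ± 1.88 in the deficient ones. Its log2 change was -3.41 (SE 0.40, adjusted p = 4.92e-07), with at most 9 and 6 reads in a library of TIMP1 KO 1 and TIMP1 KO 2.

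The related lists below are read against the 33.0% of all genes that were lower and 32.9% that were higher between deficient and competent lines, and the 46.3% and 26.5% among the abundant genes. The kinases that phosphorylate the SR tail, and the importin that carries SR proteins into the nucleus, were lower in 5 of 10 and higher in 1 between deficient and competent lines, with a median log2 change of -0.25. The share lower was near that of the abundant genes, but SRPK3, CLK1, CLK2 and CLK4 were far below the 2000 normalized counts that define those. SRPK2, a cytoplasmic SR kinase, was lower by 0.38 on the log2 scale (limma adjusted p = 2.76e-06), and TNPO3, the importin, by 0.31 (adjusted p = 2.27e-05). SRPK2 was highest in CRISPR Control, at 2697 ± 135 normalized counts (SD, n = 3), against 2109 ± 70.2 in WT. It was at 1974 ± 98.7 in TIMP1 KO 1 and 1702 ± 100 in TIMP1 KO 2. TNPO3 was at 5827 ± 137 in WT and 5346 ± 510 in CRISPR Control. Its levels were 5123 ± 25.0 in TIMP1 KO 1 and 3953 ± 68.4 in TIMP1 KO 2. CLK1, a nuclear SR kinase, was at 0.38 (adjusted p = 9.05e-05), with TIMP1 KO 2 as its high line. Its levels were 628 ± 39.2 normalized counts (SD, n = 3) in WT, 658 ± 49.96 in CRISPR Control, 675 ± 76.2 in TIMP1 KO 1 and 1042 ± 63.8 in TIMP1 KO 2, and TIMP1 KO 1 did not pass the test against either competent line. Among 21 SR-related proteins, 10 were lower and 1 higher, with a median of -0.17, again near the share of the abundant genes. They included U2AF2, the subunit that binds the polypyrimidine tract, at -0.64 (limma adjusted p = 2.23e-09), SRRT, which acts with the cap-binding complex, at -0.48 (adjusted p = 2.82e-08), and SON, a speckle scaffold, at 0.15 (adjusted p = 0.0318). SON was low in CRISPR Control, and neither deficient line passed the test against WT (-0.03 in TIMP1 KO 1 and -0.07 in TIMP1 KO 2).

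Of 10 factors of nonsense-mediated decay, the pathway that removes poison exon transcripts, 6 were lower and none higher, with a median of -0.18. SMG9 and UPF3B were at -0.37 and -0.32. SMG9 was at 1536 ± 83.0 normalized counts (SD, n = 3) in WT and 1150 ± 138 in CRISPR Control. It was at 1152 ± 42.3 in TIMP1 KO 1, level with CRISPR Control, and at 912 ± 64.2 in TIMP1 KO 2. Of 9 genes of the exon junction complex and mRNA export, 7 were lower and 1 higher, with a median of -0.43. Against WT alone the median of the deficient lines was -0.26. ALYREF, the export adaptor, was at -0.98 and CASC3 at -0.50, whereas RBM8A, a core subunit of the exon junction complex, was at 0.54. CRISPR Control was above WT in ALYREF (12037 ± 1566 against 7507 ± 384 normalized counts) and in CASC3 (5959 ± 400 against 4565 ± 36.8). TIMP1 KO 1 and TIMP1 KO 2 were at 5724 and 4043 in ALYREF and at 3949 and 3438 in CASC3. Against WT, RBM8A was at 0.47 in TIMP1 KO 1, at -0.08 in TIMP1 KO 2, which did not pass the test, and at -0.68 in CRISPR Control. The annotation lists nonsense-mediated decay transcripts for every member, from 1 in SRSF5 and SRSF6 to 6 in SRSF7. Gene counts do not separate these from coding transcripts.

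All 11 proliferation markers were lower in the deficient lines, with a median log2 change of -0.86. The replicative helicase genes MCM5 and MCM6 had the largest falls, at -1.08 and -1.07. Against WT, 8 of 11 were lower in TIMP1 KO 1 (median -0.69), where 17.5% of all genes were lower, and 11 of 11 in TIMP1 KO 2 (median -1.26), where 27.9% were. Their summed level ran from 131353 to 135608 normalized counts in WT and from 122287 to 128831 in CRISPR Control. It ran from 94228 to 96593 in TIMP1 KO 1 and from 54557 to 56613 in TIMP1 KO 2. Their part in the change of the SR members was not tested.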

How the data were processed

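Sequencing covered total RNA of MIA PaCa-2 cells in 12 libraries, 3 labelled biological replicates of each of 4 lines. The labels do not say whether these came from separate cultures, so p-values measure the spread between these libraries. The sample titles gave the group and number of each library. The authors trimmed reads with Cutadapt, mapped them to GRCh38 with STAR, summed them by gene with featureCounts and scaled the counts by DESeq2 size factors. The deposited table thus holds a signal, read counts after scaling. Strand setting and annotation release are not given in the sources used here. Without strand, reads where a gene and its antisense neighbour overlap cannot be told apart. The scaling removes any change shared by most genes.

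Values were whole multiples of a step in each library, and dividing by it returned whole reads for all positive values within 0.01 reads. In TIMP1 KO 2 replicate 3 the step was close to that of unscaled counts, so tests on recovered reads were also run without that library. Of 63086 genes, 15987 with a mean of at least 10 were tested, holding 99.9% of the reads. A blank line and 4 columns of line means were not used. The main test was limma 3.58.1 in R 4.3.3 on log2(normalized count + 1), with line means from all 12 libraries, eBayes with a trend, two-sided tests, and Benjamini-Hochberg adjustment over all genes tested (threshold 0.05) in each of 7 comparisons. edgeR 4.0.16 and DESeq2 1.42.0 on the recovered reads were alternatives. The script was tested on simulated data. The members, gene lists and named genes were chosen with earlier results of these data known. All 10 members were named, and from each list up to 2 called genes with the highest and 2 with the lowest change between deficient and competent lines. A 10-base NRF1 motif is given by name. Coordinates are from GENCODE on GRCh38, promoter sequences from RefSeq. Processed copies of members held at most 14.4 normalized counts on average.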

Additional observations from a re-analysis of the deposited data

Results flagged for a closer look

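In 5 members the change against WT differed between the deficient lines, tested as the direct contrast of TIMP1 KO 2 with TIMP1 KO 1 (limma, 3 libraries per line). The log2 differences were -0.38 in SRSF1, -0.47 in SRSF2, -0.33 in SRSF3, -0.25 in SRSF7 and 0.35 in SRSF5. In all 5 genes the libraries of TIMP1 KO 2 did not overlap those of TIMP1 KO 1. The genes were picked by this same contrast, so the separation adds nothing to it. The SRSF7 difference lost its call with equal library totals and with quantile normalization, and without TIMP1 KO 1 replicate 1 or TIMP1 KO 2 replicate 2, with adjusted p from 0.0547 to 0.112.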

How the results depend on the processing

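No called value changed sign, whereas the median of the members in CRISPR Control against WT, near 0, took both signs (-0.017 with equal library totals). SRSF2, SRSF3, SRSF4, SRSF7 and SRSF9 stayed lower between deficient and competent lines in every setting run, apart from a required change of 0.5. That requirement left 1 member (SRSF4). SRSF11 kept its call as higher in the other settings, but not with WT alone as the reference. Neither deficient line differed from WT in SRSF11. With equal library totals and with quantile normalization the median change of the members was -0.29 and -0.27 in TIMP1 KO 2 against WT, -0.21 and -0.22 against CRISPR Control, and -0.053 and -0.076 against TIMP1 KO 1. In each of these settings 6 members instead of 8 were lower in TIMP1 KO 2 against WT. Against CRISPR Control 5 instead of 7 were lower in that line, and between deficient and competent lines 5 instead of 7. Equal totals moved the median of all genes in TIMP1 KO 2 against CRISPR Control from -0.01 to 0.11, and relative to all genes the members stayed at -0.32 (-0.17 with quantile normalization). Equal totals also raised the share of calls that were higher from 49.3% to 59.9% in TIMP1 KO 2 against WT and from 47.4% to 65.5% against TIMP1 KO 1. The median of the deficient lines was -0.28 against WT alone and -0.36 against CRISPR Control alone. The cause of these shifts was not tested.

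Leaving out each library in turn gave medians from -0.46 to -0.33 (TIMP1 KO 2 against WT), -0.16 to -0.09 (TIMP1 KO 1 against WT), -0.044 to 0.077 (CRISPR Control against WT), -0.30 to -0.16 (TIMP1 KO 1 against CRISPR Control), -0.39 to -0.28 (TIMP1 KO 2 against CRISPR Control), -0.21 to -0.14 (TIMP1 KO 2 against TIMP1 KO 1) and -0.29 to -0.22 (deficient against competent). Members called ranged in the same order over 7 to 9, 2 to 3, 4 to 5, 5 to 8, 6 to 9, 4 to 6 and 6 to 9. SRSF1 and SRSF6 lost their calls in TIMP1 KO 2 against CRISPR Control in 16 settings each, and SRSF6 and SRSF10 theirs against WT in 6 each. SRSF9 gained a call in TIMP1 KO 1 against WT in 11. Replicate numbers did not pair the libraries (r of deviations for 18 same-number pairs from -0.13 to 0.16). With the replicate block, 6 members instead of 7 were lower in TIMP1 KO 2 against CRISPR Control.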
